A study of Mus musculus with 88 samples.

Results

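This account covers the cytosolic translation factors of mouse dendritic cells, taken as the protein groups of the trypsin table whose leading gene name begins with Eif or Eef or is Etf1 or Gspt1, without the kinases whose names begin with Eif2ak. Of 5899 protein groups kept, 59 met that rule, from 56 genes. They were 14 groups of eIF3, 10 of eIF4F and its helpers, 5 each of eIF1/eIF1A, eIF2B and eEF1, 3 each of eIF2, the eIF4E-binding proteins and the eIF5/eIF5B/eIF6 set, 2 release factors and a few others. Eif2c1 and Eif2c2 met the rule by their names only, since these are older symbols of the Argonautes Ago1 and Ago2, which carry small RNAs and are not translation factors. Eef1d, Eif3j and Eif4g2 each had a second group, resting on 1 or 2 peptides.

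Initiation factors bring the small ribosomal subunit and the initiator tRNA to an mRNA. The eIF4F complex binds the cap, eIF3 is a scaffold on the small subunit, eIF2 carries the initiator tRNA and eIF2B reloads eIF2 with GTP. Elongation factors then deliver aminoacyl-tRNAs (eEF1) and move the ribosome along the mRNA (eEF2), and release factors end the chain at a stop codon. Activation of dendritic cells by bacterial products is known to change both which mRNAs are present and how strongly translation factors are used.

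Bone marrow cells of C57BL/6J females, grown into dendritic cells with GM-CSF, were either stimulated with LPS, a bacterial cell wall component, at 100 ng per ml, or mock-stimulated. All cells had been grown in medium-heavy amino acids (M) and received heavy ones (H) when stimulation began, which makes M old protein and H protein made since. Each run also held a mix of unlabelled cells (L) as common denominator. The 42 trypsin runs were 2 replicates of LPS cells at 10 times from 0.5 to 24 h and of mock cells at those times and at 0 h, and the series' 88 samples are the M and H channels of those runs plus 4 unlabelled samples of 0 h cells digested with AspN or LysN. Cells were pooled before stimulation and nothing in the labels says that the replicates came from different cultures. The p-values therefore reflect the scatter of these runs, and that scatter may be technical. The series' text describes harvests up to 12 h only, and does not say how the 24 h cells were handled.

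Depth ran from 68083 to 109064 peptide pairs per run for M/L. Of the 59 members, 42 had an M/L ratio in every run and 41 an H/L ratio in every run. Each M/L and H/L value below is scaled by its run, so that 1 is the median summed ratio (M/L and H/L added) of 2628 proteins measured throughout. These run factors lay between -0.68 and 0.69 (log2), with LPS 12 h replicate 2 standing apart at 0.69. They differed by replicate, from -0.68 to -0.28 in replicate 1 and from -0.35 to 0.69 in replicate 2. Before any heavy label had been added, at 0 h, the members' median H share of M plus H was already 11.2% and 10.2% in the 2 replicates, so H values near that level are measurement floor. Of the dendritic markers, Itgax, Cd74, H2-Aa and H2-Ab1 were listed at 0 h, while Flt3 and Zbtb46 were not among the groups kept. All 8 granulocyte markers were listed too, with S100a9 and S100a8 among the most abundant proteins, and none of the lymphocyte markers was.

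Before stimulation the elongation machinery was the most abundant of the members. Levels at 0 h are iBAQ values, a protein's intensity divided by the number of peptides it could give, expressed in ppm of the summed iBAQ of a sample. In the trypsin digest the aminoacyl-tRNA carrier Eef1a1 stood highest at 6559 ± 854 ppm, followed by Eif5a, which eases difficult peptide bonds, at 3385 ± 503 ppm (SD, n = 2). The translocase Eef2 was at 1912 ± 146 ppm and the helicase Eif4a1 at 1276 ± 19.5 ppm (SD, n = 2). Eef1a1 ranked first and Eif5a second of the members in the AspN and LysN digests as well. Most eIF3 subunits lay within a narrow band, from Eif3g at 65.4 ± 2.48 ppm to Eif3i at 271 ± 3.05 ppm, with only Eif3m at 3.63 ± 3.81 ppm far below it in trypsin (SD, n = 2). In the AspN and LysN digests Eif3m was at 29.1 ± 9.88 ppm and 42.4 ± 7.71 ppm. The 3 eIF2 subunits lay at 242 to 302 ppm, against 1.39 to 9.92 ppm for the 5 subunits of eIF2B, which acts on eIF2 as an enzyme. The cap-binding protein Eif4e was at 104 ± 40.5 ppm, the scaffold Eif4g1 at 58.4 ± 8.85 ppm and its relative Eif4g2 at 39.7 ± 1.05 ppm, while Eif4g3 was at 1.40 ± 0.592 ppm (SD, n = 2). The 3 digests come from tables scaled separately, so only ranks and orders of magnitude can be set side by side.

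**Figure D1:**
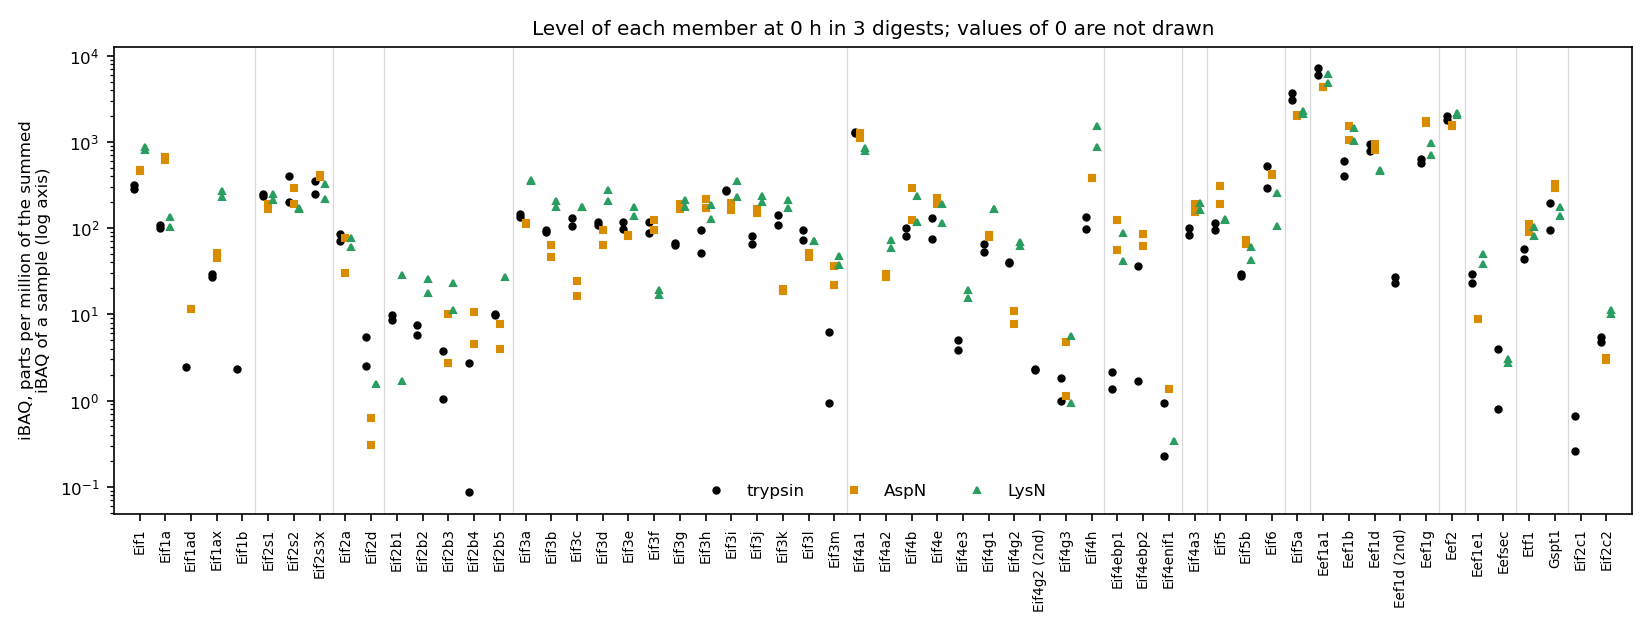
iBAQ of each member at 0 h, in ppm of a sample's summed iBAQ on a log axis, for the trypsin, AspN and LysN digests, with a point per replicate and grey lines between complexes. Eef1a1, Eif5a, Eef2 and Eif4a1 stand at the top, most eIF3 subunits share a band, and the eIF2B subunits lie far below eIF2.

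Late after LPS, new protein of Eef1a1, Eef1b and Eef2, of 4 groups of eIF4F and its helpers, and of Eif1, Eif6 and Etf1 was higher than in mock cells, while eIF3, eIF2 and eIF2B did not pass the test. New protein was read as H/L, which counts new protein still present and so does not separate making from loss, and late means 6, 9 and 12 h averaged (6 runs per treatment). Of 47 members tested by limma, 10 were higher after LPS and 0 were lower, and 13 had an unadjusted p under 0.05. The calls were 21.3% of the members tested, against 12.3% of all 3316 proteins, of which 10.6% were higher and 1.75% lower. The members' median change was 0.26 (log2), against 0.03 for all proteins. Changes below are log2 LPS over mock ± SE of that fit.

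Eef1a1 had the largest log2 increase over mock cells of the members, with Eif1 next at 1.35 ± 0.23. Its scaled H/L after LPS was 0.127 and 0.128 at 6 h, 0.192 and 0.210 at 9 h and 0.234 and 0.265 at 12 h, against 0.0646 and 0.0619, 0.0717 and 0.0662, and 0.0792 and 0.0907 in mock cells. Every LPS run lay above every mock run, and the mock values stayed near the 0 h values of 0.0777 and 0.0588. The change was 1.37 ± 0.12, or 2.58-fold (limma adjusted p = 9.02e-09). Eef2 behaved alike, with 0.138 to 0.223 (median 0.177) after LPS and 0.0873 to 0.121 (median 0.0994) in mock cells, again without overlap. Its change was 0.82 ± 0.10 (limma adjusted p = 8.87e-07).

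Within eEF1, which loads and recycles Eef1a1, the subunits parted. Eef1b, now named Eef1b2, an exchange factor for Eef1a1, ran from 0.0929 to 0.233 (median 0.132) after LPS and from 0.0434 to 0.110 (median 0.0687) in mock cells, higher in 6 of 6 pairs of runs. It was called at 1.01 ± 0.27 (limma adjusted p = 0.0121). The other exchange subunit Eef1d and the scaffold Eef1g were at 0.05 ± 0.11 and 0.02 ± 0.24 and did not pass. The second Eef1d group, with 1 peptide, was at 0.36 ± 0.18 (limma adjusted p = 0.261), and 0.54 (limma adjusted p = 0.034) without LPS 12 h replicate 2.

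Eif1, which guards the choice of the start codon, had the highest new level of the members called. After LPS its scaled H/L was 0.378 and 0.373 at 3 h, 0.496 and 0.496 at 4 h, and 0.576 to 0.743 (median 0.627) late. Mock cells had 0.165 and 0.213 at 3 h, 0.143 and 0.175 at 4 h, and 0.205 to 0.305 (median 0.248) late. The late groups did not overlap, and the change was 1.35 ± 0.23 (limma adjusted p = 1.02e-04). Its partner Eif1a was at 0.30 ± 0.35 and did not pass. The Eif1 protein group also names Gm6900, so peptides of the 2 could not be told apart in part.

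Of 8 groups of eIF4F and its helpers tested, 4 were higher. The cap-binding Eif4e ran from 0.0909 to 0.206 (median 0.154) after LPS and from 0.0750 to 0.153 (median 0.0875) in mock cells, at 0.57 ± 0.19 (limma adjusted p = 0.0452). The scaffold Eif4g1 ran from 0.131 to 0.248 (median 0.207) against 0.117 to 0.174 (median 0.148) in mock cells, at 0.41 ± 0.13 (limma adjusted p = 0.0311). Both sets of ranges overlapped. Eif4g2, a relative of Eif4g1 that does not bind Eif4e, was at 0.53 ± 0.15 (limma adjusted p = 0.0146) and the helicase Eif4a1 at 0.44 ± 0.10 (limma adjusted p = 0.00252), each higher in 6 of 6 pairs of runs. The helicase helpers Eif4b and Eif4h (0.16 ± 0.27 and 0.13 ± 0.28), Eif4g3 (0.23 ± 0.42) and the second Eif4g2 group (0.43 ± 0.32) did not pass. Without LPS 12 h replicate 2, Eif4g1 kept its size (0.41) with limma adjusted p = 0.0611.

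The factors that act at the joining of subunits and at the end of the chain held a call each. Eif6, which keeps the large subunit from joining too soon, had 0.206 to 0.330 (median 0.265) after LPS and 0.123 to 0.201 (median 0.175) in mock cells, without overlap, at 0.66 ± 0.18 (limma adjusted p = 0.0129). Etf1, which reads the stop codon, had 0.116 to 0.247 (median 0.161) after LPS and 0.0623 to 0.128 (median 0.0987) in mock cells, at 0.80 ± 0.20 (limma adjusted p = 0.00645). Its GTPase partner Gspt1 was at 0.34 ± 0.17 and did not pass, though it was higher in 6 of 6 pairs. Eif5 and Eif5b were at 0.16 ± 0.22 and 0.54 ± 0.23 and did not pass.

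None of the 13 eIF3 groups tested passed, and 1 had an unadjusted p under 0.05 in limma. Their changes ran from -0.40 (Eif3g) to 0.40 (Eif3e) with a median of 0.21, and 10 were above 0. The nearest was Eif3i at 0.31 ± 0.12 (limma adjusted p = 0.0923, and 0.0435 with the replicate number as a block). The subunits of eIF2 (0.16 to 0.47) and the eIF2B subunits tested (0.18 and 0.23) did not pass either, with 0 unadjusted p under 0.05 in limma. Eif2d, a factor of ribosome recycling and alternative initiation, had the lowest value (-2.00 ± 0.74, limma adjusted p = 0.0888). Its H/L scattered from 0.282 to 4.06 over mock runs on a median of 4.5 peptide pairs.

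Without the run factor 6 members were called (9.32% of all proteins), as the members' median moved to 0.41 and that of all proteins to 0.20. With the replicate number as a block as well 14 were called (16.3% of all proteins), among them all 10. On the deposited normalised ratios 2 of 47 were higher and 2 lower, against 16.9% of all proteins called in either direction. The members' median was then -0.27 and that of all proteins -0.48. Eif4g1 (-0.02), Eif4a1 (-0.01) and Eif4g2 (-0.03) changed sign. Subtracting H/L at 0 h left 23 members testable, of which Eif1 and Eef2 were called. Eif4a1, Eif4g1 and Eif4g2 were tested there and did not pass, while Eef1a1, Eef1b, Eif4e, Eif6 and Etf1 were not testable. Fitting 1 replicate alone kept 3 calls without replicate 1 (Eef1a1, Eif1 and Eef2) and 2 without replicate 2 (Eef1a1 and Eif1).

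**Figure D2:**
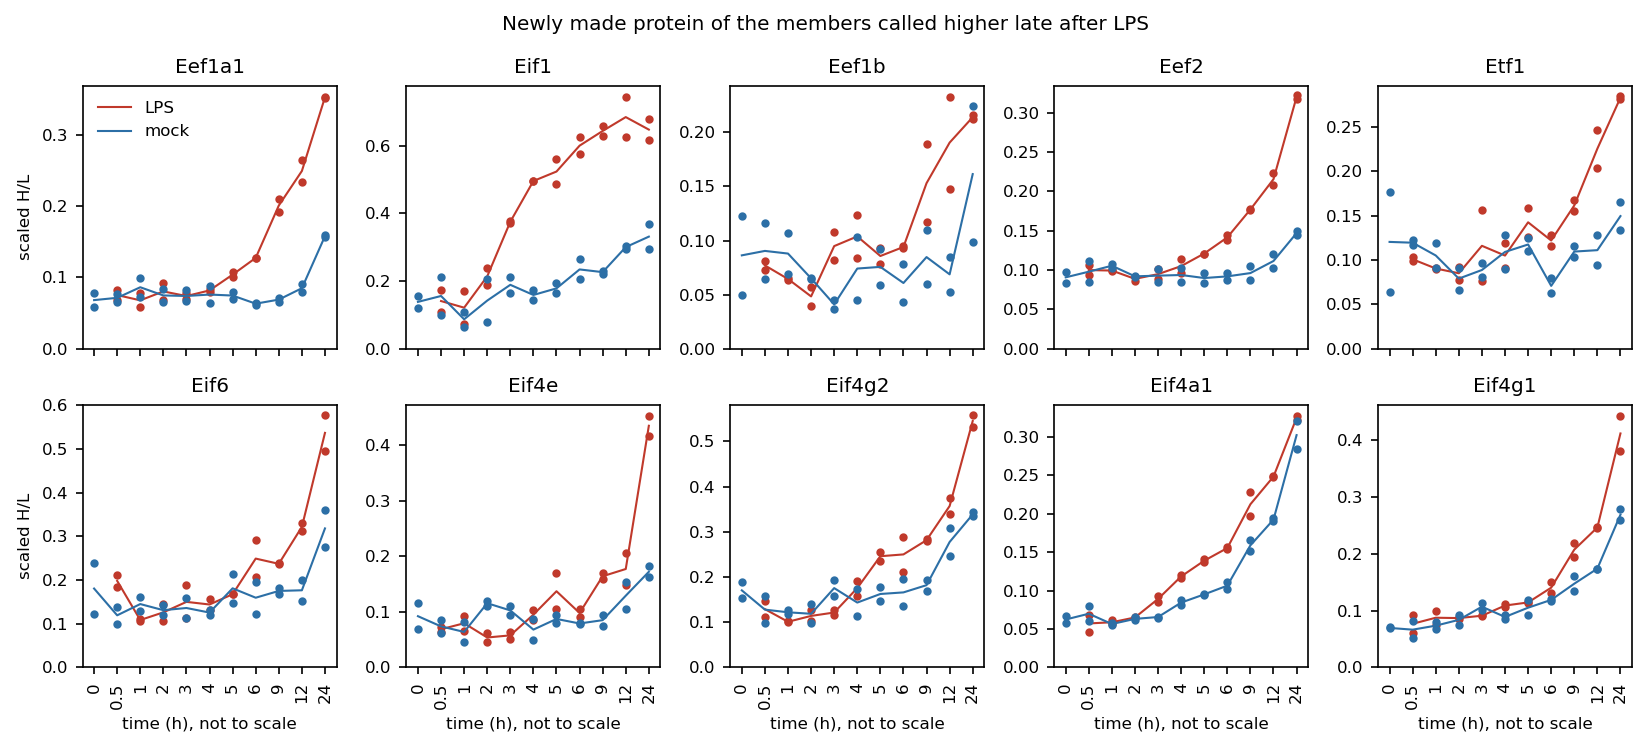
Scaled H/L (1 is the median protein's M plus H) over time, with times spaced evenly, for the 10 members called higher late after LPS; points are replicates and lines join their means, LPS in red and mock in blue. Eef1a1, Eef2, Eif1 and Eif6 do not overlap with mock cells at 6 to 12 h, Eif1 from 3 h on, while Eif4a1 and Eif4g1 rise in both treatments.

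**Figure D3:**
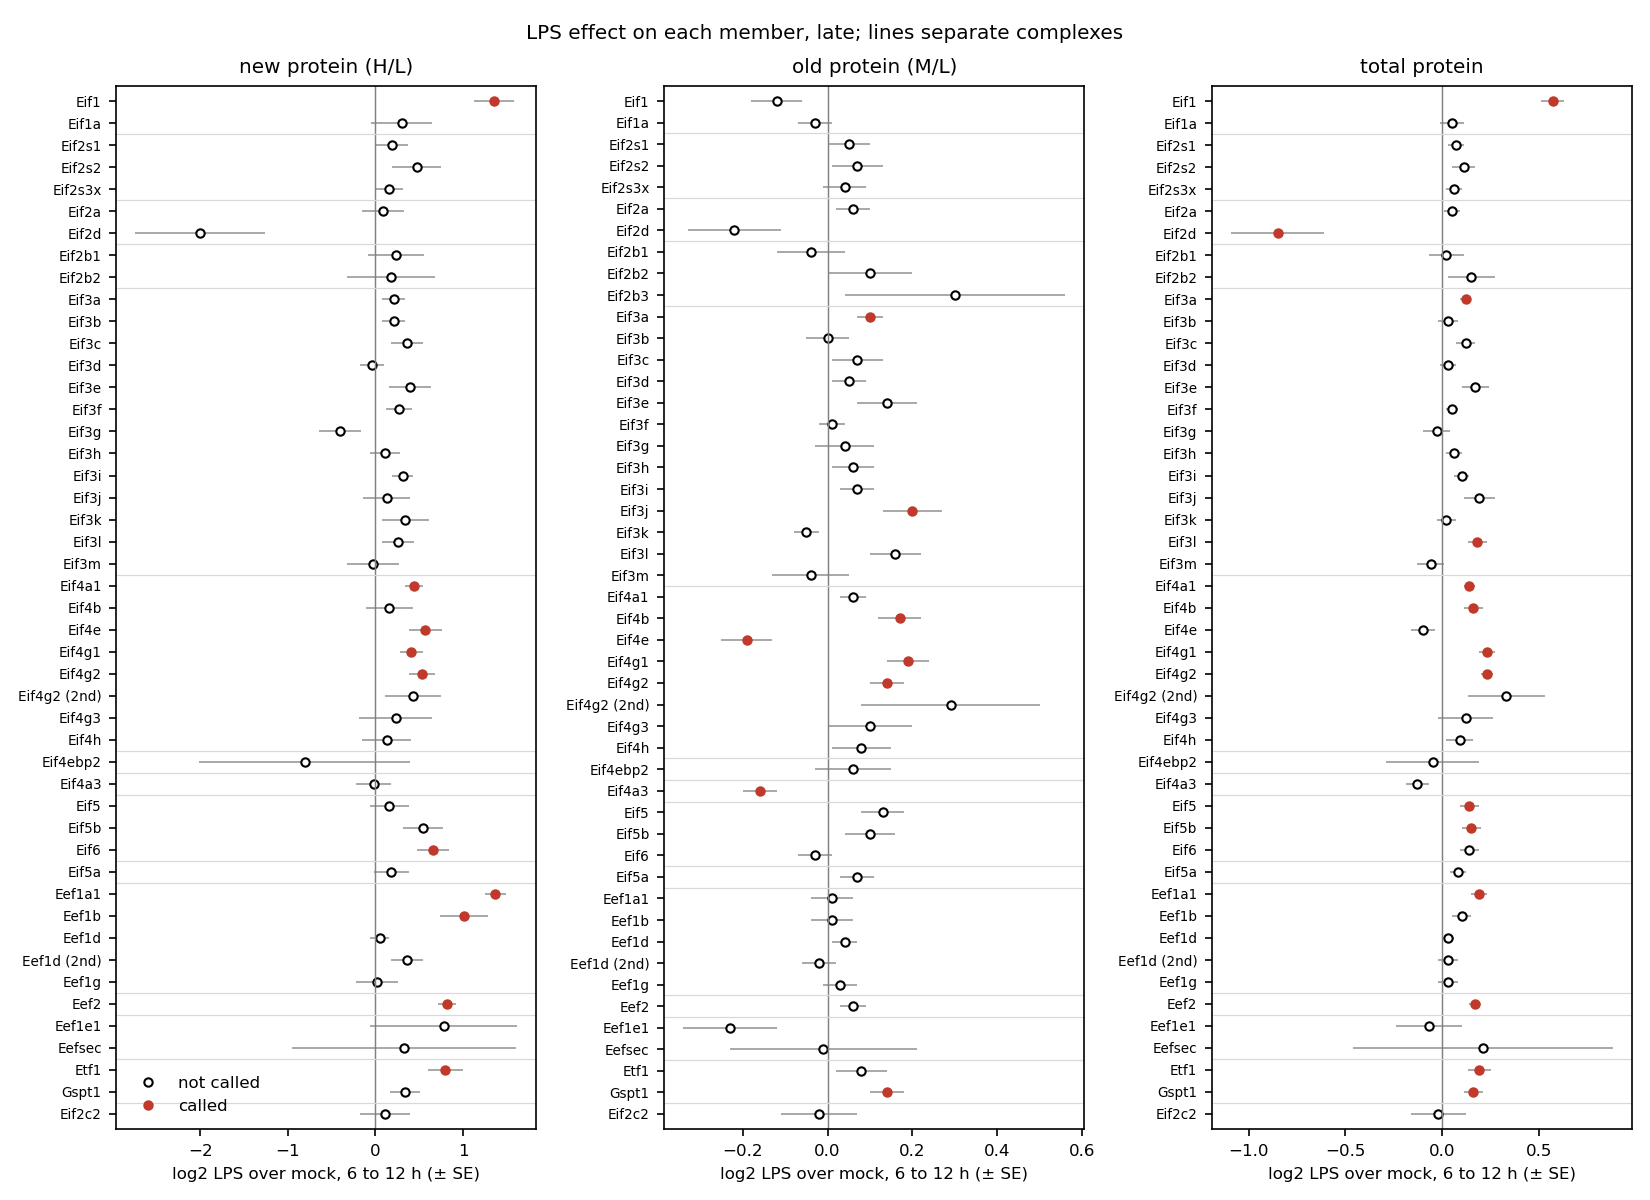
Log2 LPS over mock ± SE at 6 to 12 h for each member tested, for new, old and total protein, with filled points for adjusted p under 0.05 and lines between complexes; the 3 panels have their own scales. New protein calls fall in eEF1, eEF2, eIF4F, Eif1, Eif6 and Etf1, and none in eIF3 or eIF2.

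The mRNAs of many elongation factors are known to begin with a C followed by a run of pyrimidines, the TOP motif, through which their translation responds to growth signals. The first bases of the 7 genes called in new protein that matched the promoter table are shown for that reason, from RefSeq on GRCm38.p6, from 7 bases before the annotated start to 22 after it, with capitals on a C followed by at least 5 more C or T.
Eef1a1 (chr9:78481702-78481731, minus strand): cgCCCTCTTCCCgagggtgggggagaacgg
Eef1b2 (chr1:63176824-63176853, plus strand): cagttccgccggaagtagccgaggccttgc
Eef2 (chr10:81176624-81176653, plus strand): gccgggcgttgacgtcagcggtCTCTTCCg
Eif1 (chr11:100319942-100319971, plus strand): gtcacaggggcggctatataagtgaataca
Eif4a1 (chr11:69672401-69672430, minus strand): acgtcacgtcgagttgcagagcgccggcag
Eif4e (chr3:138526184-138526213, plus strand): cagcagcggaggcggagggagctggtcctt
Eif4g1 (chr16:20672720-20672749, plus strand): cagctccgCCCTCTgcgccggtcacgtggg
Searched on the coding strand within 30 bases of the start, such a run was found for 3 of these 7, or 42.9%, for 35.7% of 28 members that did not pass, and for 40.1% of all 27025 promoters. The share among the genes called was thus near that of all genes. A run anywhere in that window was counted, before the start as well as after it, and annotated starts can be off by some bases. These shares therefore do not show which mRNAs begin with the motif. On a list of members whose mRNAs are known for the motif, written with earlier results of these data known, 3 of 10 tested were higher (median 0.31), against 7 of 37 other members (median 0.23).

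Protein made before the stimulus moved little. In M/L late, 6 of 48 members tested were higher and 2 lower, against 3.53% higher and 13.6% lower of all proteins. The members' median was 0.06, against -0.02 for all proteins. Eif4g1 had 0.686 to 0.804 (median 0.737) after LPS and 0.575 to 0.768 (median 0.645) in mock cells, at 0.19 ± 0.05 (limma adjusted p = 0.00562). Eif3a, the largest eIF3 subunit, was at 0.10 ± 0.03 (limma adjusted p = 0.0181), and Eif3j (0.20), Eif4b (0.17), Eif4g2 (0.14) and Gspt1 (0.14) were also called. The 2 lower were Eif4a3, a helicase of the exon junction complex, with 0.692 to 0.808 (median 0.747) after LPS and 0.773 to 0.897 (median 0.857) in mock cells (-0.16 ± 0.04, limma adjusted p = 0.0106), and Eif4e (-0.19 ± 0.06, limma adjusted p = 0.0416). Eif4a3 was lower in 6 of 6 pairs, but was at 0.01 without the run factor. Without LPS 12 h replicate 2 only Eif3a, Eif4g1 and Eif4a3 were called, and Eif3j, Eif4b, Eif4g2, Gspt1 and Eif4e stood at 0.13, 0.13, 0.12, 0.09 and -0.15 (limma adjusted p = 0.206, 0.0535, 0.0802, 0.141 and 0.154). Without the run factor 0 members were called, and 14 with the replicate number as a block as well, 6 of them among the 8.

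Total protein, the sum of both forms, was higher for 13 of 47 members late and lower for 1, against 10.2% higher and 9.59% lower of all proteins. The highest over mock cells was Eif1, with 0.977 to 1.15 (median 1.12) after LPS and 0.689 to 0.849 (median 0.722) in mock cells, at 0.57 ± 0.06, or 1.48-fold (limma adjusted p = 1.07e-07). The others called higher stood 0.12 to 0.23 above mock cells. These are not all rises from 0 h. Eif1 was at 0.944 and 0.965 at 0 h, between its 2 late medians. Gspt1 had late medians of 1.03 after LPS and 0.915 in mock cells, both below its 1.06 at 0 h. For Etf1 these were 0.862 and 0.778, against 0.873 and 0.956 at 0 h. Members above 0 h were not counted. Eif4g1 and Eif4g2 were both at 0.23, Eef1a1 at 0.19 ± 0.04 (limma adjusted p = 9.52e-04), Eef2 at 0.17 ± 0.03 (limma adjusted p = 4.18e-04) and Eif4a1 at 0.14. For Eef1a1, Eef2, Eif1, Eif3a, Eif4a1, Eif4g1 and Eif4g2 the late LPS and mock ranges did not overlap. How many of all proteins had ranges apart was not counted. On the deposited normalised ratios 3 of 47 members were higher and 2 lower, against 19.9% of all proteins called in either direction. The members' median was then -0.12 and that of all proteins -0.27. Eif3a (-0.13), Eif3l (-0.15), Eif4b (-0.13), Eif5 (-0.21) and Gspt1 (-0.06) changed sign there. Eif2d was lower at -0.85 ± 0.24 (limma adjusted p = 0.013). Without LPS 12 h replicate 2 the calls of Eif2d (-0.73, limma adjusted p = 0.056), Eif4b (0.14, 0.101), Eif5 (0.11, 0.173), Eif5b (0.12, 0.149), Etf1 (0.13, 0.119) and Gspt1 (0.13, 0.0619) ended, each given with its limma adjusted p, and Eif6 was called (0.17, limma adjusted p = 0.0325). Without the run factor 0 were called, while its removal together with the replicate number as a block gave 28.

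At 24 h total protein was higher after LPS than in mock cells in most complexes, on the scaling used here. Of 45 members tested, 26 were higher after LPS and 2 lower, against 17.7% higher and 20.1% lower of all proteins. Their median was 0.24, against 0.01 for all proteins, and 13 of the 14 members called late were called here too. Calls covered 6 of 7 tested in eIF4F and its helpers, 7 of 13 in eIF3, 2 of 3 in eIF2, 2 of 5 in eEF1, both release factors and all 3 of Eif5, Eif5b and Eif6. Eif1 was at 0.890 and 0.870 after LPS, against 0.585 and 0.513 in mock cells (0.68 ± 0.10, limma adjusted p = 1.07e-05). Eif4g1 was at 1.10 and 1.00 after LPS, against 0.694 and 0.716 in mock cells, at 0.57 ± 0.08 and 1.49-fold. The eIF3 subunit with the largest change, Eif3e, was at 1.03 and 1.17 after LPS and 0.829 and 0.786 in mock cells (0.45 ± 0.12, limma adjusted p = 0.0061). Both replicates after LPS lay above both mock replicates for these 3 members. At 0 h Eif1 was at 0.944 and 0.965, Eif4g1 at 0.885 and 0.952 and Eif3e at 1.15 and 1.26. All 3 were thus lower in mock cells at 24 h than at 0 h. After LPS at 24 h Eif4g1 stood above its 0 h values, Eif1 stood below them and Eif3e overlapped them. Changes from 0 h were not tested.

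The 2 members lower at 24 h were Eif4a3 and Eif2b2. Eif4a3 was at 0.742 and 0.820 after LPS, against 1.03 and 1.25 in mock cells (-0.54 ± 0.10, limma adjusted p = 1.57e-04), apart from its paralogue Eif4a1, which was higher at 0.15 ± 0.06 (limma adjusted p = 0.0474). Eif2b2, a regulatory subunit of eIF2B, was at 0.824 and 0.966 after LPS, against 1.27 and 1.17 in mock cells (-0.45 ± 0.17, limma adjusted p = 0.0468), though it was at 0.07 on the deposited normalised ratios and was not testable with at least 3 peptide pairs. The other 2 eIF2B subunits tested did not pass.

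Calls at 24 h were more frequent in old than in new protein, while the median change was larger in new protein. In M/L, 15 of 45 members were higher and 2 lower, against 10.3% higher and 27.6% lower of all proteins, and the members' median was 0.15, with Eif4g1 at 0.653 and 0.621 after LPS and 0.415 and 0.457 in mock cells (0.55 ± 0.08, limma adjusted p = 7.57e-06). The 2 lower were again Eif2b2 (-0.56 ± 0.16) and Eif4a3 (-0.51 ± 0.07). In H/L, 3 of 45 were higher, against 7.88% of all proteins. These were Eif4e, with 0.417 and 0.452 after LPS and 0.182 and 0.162 in mock cells (1.34 ± 0.32, limma adjusted p = 0.00643), Eef1a1 (1.16 ± 0.21) and Eef2 (1.12 ± 0.17). The share of members higher in H/L was thus no larger than that of all proteins, though their median of 0.49 stood above 0.06 for all.

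Limits at 24 h were the 2 runs per treatment and the scaling. Fitting 1 replicate alone left 9 calls in total protein without replicate 1, 16 without replicate 2, and 0 in H/L without either, and without the run factor 0 members were called in total protein, though the members' median was then 0.48, against 0.25 for all proteins. With the replicate number as a block as well, 35 members were higher, 26 of them among the 28, and the calls of Eif4a3 and Eif2b2 ended. On the deposited normalised ratios 5 of 45 members were called in total protein, all higher, against 11.3% of all proteins called. The members' median was then 0.21 and that of all proteins -0.05. Markers of another cell type moved with these results. Of 5 granulocyte markers tested in total protein at 24 h 4 were lower after LPS, and their summed scaled level was 3.82 and 3.90 after LPS, against 9.71 and 9.90 in mock cells. Late, it was 7.54 to 9.93 after LPS, against 10.6 to 13.9 in mock cells, with 2 lower and 1 higher of 5. The 24 h changes were -2.79 for Ngp, -2.38 for Ltf, -0.93 for Mpo and -0.46 for S100a8 (log2). The summed dendritic markers were at 3.16 and 3.94 after LPS, against 4.32 and 5.08 in mock cells, with 2 of 4 lower, and the summed macrophage markers at 3.13 and 3.19 after LPS, against 3.54 and 3.72 in mock cells, with 1 higher and 1 lower of 3. Late, the dendritic sum was 3.27 to 4.34 after LPS, against 3.59 to 4.35 in mock cells (0 of 4 called), and the macrophage sum 1.87 to 2.59 after LPS, against 2.79 to 3.54 in mock cells (1 higher and 2 lower of 3). Their part in the members' changes was not tested, and fewer cells of a type and less of a protein per cell cannot be told apart in bulk samples.

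**Figure D4:**
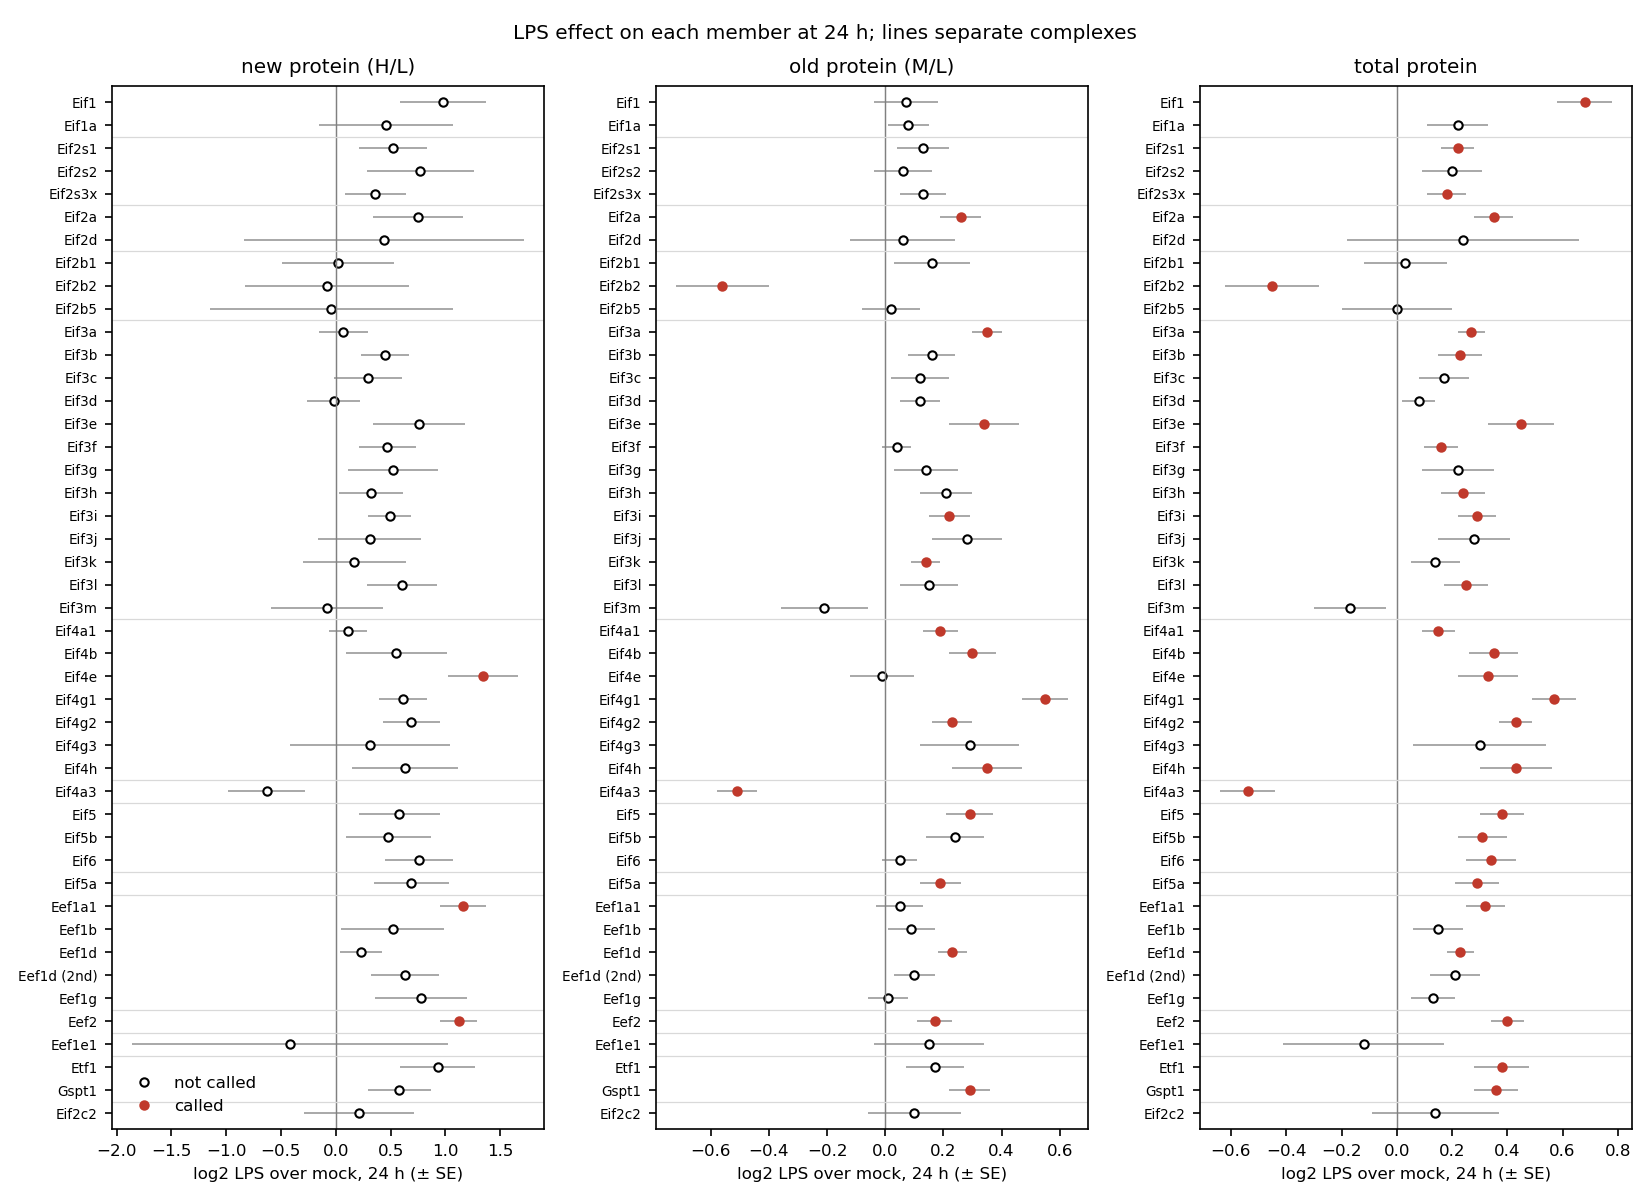
Log2 LPS over mock ± SE at 24 h for each member tested (2 runs per treatment), for new, old and total protein, with filled points for adjusted p under 0.05; panels have their own scales. Total protein lies right of 0 for most complexes, with Eif4a3 and Eif2b2 on the left.

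Within the first hours nothing passed. Averaged over 1, 2 and 3 h, 0 of 46 members were called in H/L by limma, 3 had an unadjusted p under 0.05, and 0.475% of all proteins were called. In a test of the late effect against the early one, 4 of 45 members differed, all with a larger late effect, against 7.22% of all proteins in either direction and 6.3% with a larger late effect. Eef1a1 was at 1.45 ± 0.17 (limma adjusted p = 3.12e-06), Eif4e at 1.11 ± 0.26 (limma adjusted p = 0.0086), Eef2 at 0.86 ± 0.14 and Eif4g2 at 0.81. For Eif4e the early effect was -0.53 ± 0.19 (limma adjusted p = 0.502). Its H/L at 1 to 3 h, 0.0456 to 0.0927 after LPS and 0.0457 to 0.12 in mock cells, lay near its 0 h values of 0.0683 and 0.116, the measurement floor.

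Most members were replaced slowly in mock cells. Replacement was read as the slope of the log2 M share of M plus H on time from 0.5 to 12 h, which needs no light signal. The M share falls when new protein is added as well as when old protein is lost. A steeper slope therefore does not by itself mean faster loss of old protein. The 46 members measured had a median slope of -0.00688 per hour, against -0.00815 for all proteins, and 19 differed from 0 (36.4% of all proteins did). Eif2d had the steepest slope in mock cells that differed from 0 (-0.117 ± 0.033 per hour), but its H/M scattered from 0.225 to 3.27 over the late mock runs on few pairs and was 0.464 and 0.316 at 24 h, so no time of replacement is read from it. The next steepest were Eif1 (-0.0468 ± 0.0059) and Eif4a1 (-0.0244 ± 0.0015), leaving aside Eefsec and Eif4g3, whose slopes did not differ from 0. At those slopes a halving of the M share took 21.4 h for Eif1 and 41.1 h for Eif4a1, against 143 h for the eIF2 subunit Eif2s1 and 222 h for Eif5a, which reach far beyond the times sampled. The H signal at 0 h was not subtracted for these times. The members' median slope was -0.00554 with H/M at 0 h subtracted and -0.00927 with 24 h included, so halving times depend on such choices. Eif4g1 and Eif4g2 came next, at -0.0198 ± 0.0020 and -0.0213 ± 0.0035, and the median of the eIF4F set was -0.0198, against -0.00684 for eIF3. The slowest were Eif3g, Eef1b and Eif2a (0.000933, 0.000849 and 0.000275 per hour), none of which differed from 0.

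After LPS 9 of 46 members had a steeper slope than in mock cells and none a shallower one, against 13.9% of all proteins called in either direction, 12.1% steeper and 1.74% shallower. Eif1 was at -0.113 ± 0.0059 per hour after LPS and -0.0468 ± 0.0059 in mock cells, a halving of its M share in 8.87 h against 21.4 h (difference -0.0659 ± 0.0084, limma adjusted p = 1.52e-07). Eef1a1 was at -0.0226 ± 0.0018 after LPS and -0.000566 ± 0.0018 in mock cells (limma adjusted p = 1.48e-08). Eif6 was at -0.0318 ± 0.0031 after LPS and -0.0101 ± 0.0031 in mock cells. Etf1, Eef1b, Eef2, Eif4e, Eif4a1 and the second Eef1d group were the others. Of the 9, 8 were also called in new protein late, where Eif4g1 and Eif4g2 were called without a difference in slope. The H/M ratio, which needs no run factor, called those same 8 members late (11.4% of all proteins were higher). Slopes are computed from the same H/M values and H/L holds the same H signal, so these calls are no separate check. On the deposited normalised ratios 0 slopes differed, and those of Eif6, Eif4a1 and the second Eef1d group changed sign.

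Other proteins of the pathway were compared from 3 lists. Of 12 translation regulators tested in new protein late, 5 were higher, against 10.6% of all proteins. They included the kinase Eif2ak2 (1.38 ± 0.22), which phosphorylates eIF2 on double-stranded RNA, the reinitiation factor Denr (0.94 ± 0.31), the poly(A)-binding protein Pabpc1 (0.74 ± 0.17) and the helicase Ddx3x (0.31 ± 0.08), while the list's median was 0.02. Of 22 aminoacyl-tRNA synthetases and their cofactors, 1 was higher, the arginyl-tRNA synthetase Rars (0.70 ± 0.13, limma adjusted p = 2.31e-04), and their median was -0.04. Of 71 cytosolic ribosomal proteins, 27 were higher with a median of 0.52, so new ribosomal protein stood above the members' median of 0.26 while the synthetases stood below it.

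In new protein late 12 members were not tested, since they lacked values. Eif4ebp1, the inhibitor that holds Eif4e when growth signals are low, had M/L in 11 of 42 runs and H/L in 0. Its relative Eif4ebp2 was tested at -0.81 ± 1.21 and gave no usable bound. Eif4a2, the paralogue of Eif4a1, had ratios in 3 runs. The others were Eif1ad, Eif1ax, Eif1b, Eif2b3, Eif2b4, Eif2b5, Eif2c1, Eif4e3, Eif4enif1 and the second Eif3j group. The Eif5a group also named Eif5a2, a close copy. Eif4g1 and the main Eef1d group had no peptide unique to the group.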

How the data were processed

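The authors deposited protein group tables with, per run, the SILAC ratio M/L, H/L and H/M, as measured and normalised, and the count of peptide pairs behind each ratio, per the file headers, whose column names are those MaxQuant writes. The iBAQ intensity used for 0 h levels was deposited too. Its version is not stated there. The submitters' processing notes name mm9. Of 6266 trypsin groups, 5899 remained without reverse, contaminant and site-only entries. M/L and H/L, which share the light denominator, were divided by the run factor, logged (log2) and fitted in R 4.3.3 with limma 3.58.1 as 21 group means over 42 runs, with Benjamini-Hochberg adjustment over all proteins tested and calls under 0.05. Late tests needed 4 of 6 values per treatment, slopes 12 of 18. Fits were tested on simulated data. Fits without a replicate used time means with an LPS effect shared by the times of a window. Members, role lists and partner lists were chosen with earlier results of these data known. Any member could be named, with fuller values for the largest late changes, each complex's extremes and the fastest and slowest replaced. Partners were named where called, among the largest changes. Same-numbered LPS and mock replicates deviated together at all 10 times (r over proteins from 0.247 to 0.55). The numbers were therefore taken as pairing the samples, from the data and not the labels. That pairing entered the counts of pairs and the replicate block, and not the main fit. Alternatives covered the scaling, filters, pairing and each left-out replicate. Promoters came from RefSeq (GRCm38.p6), where 43 members matched outside chromosome 18, whose genes were left out. Figures were drawn with matplotlib 3.10.9.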

Additional observations from a re-analysis of the deposited data

Results flagged for a closer look

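The effect of LPS on new protein (H/L) differed between the late times and 1 to 3 h for 4 of 45 members by limma's test of that difference. Of all proteins 7.22% differed, and 6.3% had a larger late effect, so the members' share was near that of all proteins. The late minus early difference was 1.45 for Eef1a1, 1.11 for Eif4e, 0.86 for Eef2 and 0.81 for Eif4g2 (log2). The late effects were 1.37, 0.57, 0.82 and 0.53, and the early ones -0.08, -0.53, -0.04 and -0.28, none of which passed the test. For Eif4e the H/L values at 1 to 3 h lay near its 0 h values, the measurement floor.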

How the results depend on the processing

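Asking for a value in every sample ended no call of the members, and asking for at least 3 peptide pairs left, of the called results, only Eif2b2 at 24 h in old and total protein without a test. Adding the replicate number as a block also ended none, and moved no count by over 1.5 times: it gave 11 calls in new protein late, 10 in old protein late, 20 in total protein late, 8 in H/M late, 4 in new protein at 24 h, 30 in total protein and 22 in old protein at 24 h, 4 in late minus early and 9 in slopes. Leaving out replicate 1 or 2 took 73 and 67 of 101 called member results below the threshold. Without the run factor the counts were 6 in new, 0 in old and 0 in total protein late, 0 in old and total protein at 24 h and 1 in late minus early. Without the run factor but with the replicate block they were 14 in new, 14 in old and 28 in total protein late and 12 in new, 23 in old and 35 in total protein at 24 h, and 78 of 84 member results kept their direction and side of the threshold. The deposited normalised ratios gave 4 in new, 26 in old and 5 in total protein late, 4 in H/M late, 4 in new protein early, 0 in new, 33 in old and 5 in total protein at 24 h, 8 in late minus early and 0 in slopes, with a median mock slope of -0.0601. Of all proteins they called, in the same order, 16.9%, 29.2%, 19.9%, 13.2%, 5.78%, 5.46%, 51.9%, 11.3%, 22.5% and 0%. Subtracting H/L at 0 h left 2 calls in new protein late, while 3 ended and the other members called there were not testable. Including 24 h gave a median mock slope of -0.00927. Without LPS 12 h replicate 2 there were 3 calls in old and 9 in total protein late. Without 1 replicate the counts ranged from 2 to 3 in new, 0 to 1 in old and 2 to 4 in total protein late, 3 to 4 in H/M late, 0 to 0 in new, 4 to 7 in old and 9 to 16 in total protein at 24 h, 0 to 1 in late minus early and 4 to 7 in slopes, and the median mock slope from -0.00633 to -0.0087. On the normalised ratios these changed sign: Eif4g1 (-0.02), Eif4a1 (-0.01) and Eif4g2 (-0.03) in new protein late, Eif3k in old protein late (0.06), Eif3a (-0.13), Eif5 (-0.21), Eif4b (-0.13), Eif3l (-0.15) and Gspt1 (-0.06) in total protein late, Eif4a1 in H/M late (-0.10), Eif6 in new protein early (0.70) and Eif2b2 in total protein at 24 h (0.07). So did Eif3a (-0.99), Eif4a1 (-0.54), Eif5a (-0.84), Eif3b (-0.66), Eif2s3x (-0.91) and Eif3g (-1.37) in late minus early, and Eif6 (0.0119), the second Eef1d group (0.00877) and Eif4a1 (0.0283) in slopes. Eif4a3 in old protein late was at 0.01 without the run factor, with or without the block. The cause was not tested. Few peptide pairs limit Eif2d and the eIF2B subunits.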

Other observations

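The 3 digests gave some members quite different places at 0 h. Eif4a2, the paralogue of Eif4a1, was listed at 0 in trypsin, and at 28.2 ± 1.97 ppm in AspN and 65.7 ± 9.83 ppm in LysN (SD, n = 2). The inhibitor Eif4ebp1 was at 1.75 ± 0.542 ppm in trypsin, 89.0 ± 47.7 ppm in AspN and 65.1 ± 33.1 ppm in LysN. The helicase helper Eif4h was at 116 ± 26.8 ppm in trypsin, 382 ± 6.22 ppm in AspN and 1207 ± 470 ppm in LysN. Eif1ax was at 28.2 ± 1.56 ppm in trypsin and 252 ± 27.3 ppm in LysN. The time course used trypsin only.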
